A study of Mus musculus with 29 samples.

Results

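The data described are the levels of 10 circadian clock genes in the colon of 29 mice. The genes are Arntl (also called Bmal1) and Npas2, Nr1d1 and Nr1d2, Dbp and Tef, Per1, Per2 and Per3, and Cry1. They are 10 of the 54532 genes in the count table, and all 10 were among the 18616 genes with enough counts to be tested. They were chosen from known clock genes with earlier results of these data known, by their levels in the 9 groups of mice. Their levels and fold changes are therefore a description. Where it is said how many of them passed the edgeR threshold, the share of all genes that did stands beside the count, and nothing is read from it. Tests are read only for genes outside this set. The lists of these genes were also chosen with earlier results of these data known, so their counts and p-values carry that limit.

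The clock is a loop of gene products that switch each other on and off over a day. Arntl pairs with Clock or Npas2 and binds the E-box sequence, which drives the Per and Cry genes, the nuclear receptor genes Nr1d1 and Nr1d2, and Dbp and Tef. Per and Cry proteins shut this drive down, while Nr1d1 and Nr1d2 repress Arntl and Npas2 through the RORE sequence, where the Ror receptors activate. Dbp and Tef act on a further sequence, the D-box. In peripheral tissues of mice, the transcripts of Nr1d1, Nr1d2, Dbp and Tef are known to peak in the hours of light and to be low when Arntl and Npas2 are high. Cry1 is known to peak late in the dark phase, after the Per genes. The colon has such a clock, in the epithelium as well as in other cells.

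All mice were sampled as whole colon segments, by polyA RNA sequencing, with 3 or 4 mice in each group. Untreated Balb/C mice (written BALB/c here, n = 3) served as control for 3 models in mice labelled with the same strain. In these, DSS (n = 3) was given in drinking water at 3% for 5 days with culling at day 10, DNBS (n = 3) was given rectally at 3 mg, and an IL10 blocking antibody (n = 4) was used. The protocol gives the last as 750 ug of anti-IL-10R with culling after 4 weeks, whereas the study's methods name Il10-/- mice and a C57BL/6 wild type, so strain and agent of these groups are given only as labelled. Untreated Balb/C Rag2-/- mice (n = 3), which lack T and B cells, served as control for TRUC mice (n = 4), which are Balb/C Tbx21-/- x Rag2-/- and develop colitis without treatment. Since TRUC mice differ from these controls in the Tbx21 label as well, this genotype and colitis cannot be told apart. Untreated mice labelled C57BL/6 Rag1-/- (n = 3) served as control for 2 models. Anti-CD40 mice (n = 3), also labelled C57BL/6 Rag1-/-, received 50 ug of an agonist antibody and were culled after 7 days. T cell transfer (TCT) mice (n = 3) received naive CD4+ T cells and were culled after 6 to 8 weeks. The genotype label of the TCT recipients is Rag1-/- and their treatment text says Rag2-/-. The mice were kept under a light/dark cycle, and the hour of culling of any mouse is not given in the sources used here. A shift in the hour of sampling and a change of clock gene levels in colitis therefore cannot be told apart in any comparison of these groups.

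Total counts were 10725564 to 14977094 per mouse (median 12287039). Levels are given as CPM, counts relative to the scaled total count of the library. Each of the 10 colon epithelium markers was found in all 29 libraries, and their summed level was 5474 to 17121 CPM. With the IL-10 antibody the sum was 8082 to 17121, against 6842 to 8165 in the BALB/c controls. There Epcam, Vil1, Krt20, Muc2 and Cdx2 rose and Slc26a3 fell. In TRUC it was 7489 to 7837, below the Rag2-/- controls at 8637 to 9681, where Vil1 and Krt20 rose and Slc26a3, Car1, Car4 and Aqp8 fell. Rag2 transcripts were counted at 15 to 25 reads in the Rag2-/- controls and 57 to 94 in TRUC, at 6 to 20 in the libraries labelled Rag1-/- control and 48 to 99 in those labelled anti-CD40, and at 0 in TCT. Rag1 transcripts were counted at 20 to 33 in TCT and at most 4 in every other library. Reads of the deleted gene remained in the Rag2-/- libraries. Tbx21 was counted at 26 to 52 reads in the libraries labelled TRUC and 1 to 7 in the Rag2-/- controls (log2 fold change 3.64, SE 0.61, adjusted p = 6.28e-05, edgeR), which goes against the Tbx21-/- label, and gene counts do not show whether such reads come from outside the deleted part. It was also higher in TCT, at 31 to 63 reads, and with the IL-10 antibody, at 20 to 38. The labelled Rag1-/- control and anti-CD40 libraries had Rag2 reads as these did and few Rag1 reads, unlike TCT with the same label, so anti-CD40 and TCT are also set against another control. These second controls, Rag2-/- for anti-CD40 and BALB/c for TCT, differ from them in labelled strain too. The summed level of 8 leukocyte markers was 22.9 to 36.9 CPM in the Rag2-/- controls, 22.4 to 31.2 in the libraries labelled Rag1-/- control and 96.9 to 121 in the BALB/c controls. It was 804 to 1290 CPM in TRUC, 458 to 1991 in DSS, 299 to 493 with the IL-10 antibody, 334 to 438 in TCT, 67.7 to 236 with anti-CD40 and 140 to 197 in DNBS. The summed level of 6 smooth muscle markers was 2969 to 4353 CPM in TRUC, below the Rag2-/- controls at 5979 to 6587, and 2628 to 4955 with the IL-10 antibody, below the BALB/c controls at 6489 to 8061. Of the 6, Myh11 and Acta2 fell in TRUC, and these with Des, Cnn1 and Tagln fell with the IL-10 antibody. In DSS, DNBS, TCT and anti-CD40 the sum overlapped that of the controls, and 5 pancreas markers summed to at most 4.36 CPM in any mouse. The part of these cells in the clock gene levels was not tested, and in whole tissue fewer cells of a type and less RNA per cell cannot be told apart.

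To show the sequences through which the loop is known to run, the promoters of the 10 genes (GRCm38.p6, RefSeq, 250 bases before to 50 after each start) were searched on both strands for CACGTG (E-box), TTANGTAA (D-box) and TNGGTCA (the core of RORE). A window was found for 9 genes, and for Per2 none was in the table. CACGTG was in the windows of 3 genes, Tef, Per1 and Cry1, against 7.15% of all 32851 promoter windows. TTANGTAA was in those of Per3, against 2.32%, and TNGGTCA in those of Tef, Per3 and Arntl, against 10.96%. The following stretches hold these matches, of Arntl only the one nearest its start, with the match in capitals and read 5′ to 3′ on the strand of the gene. In Tef and Per3 the match to TNGGTCA lies on the other strand and so reads TGACCAA. On that strand it is TTGGTCA, a match to the loose form only, and differs in the open letter from the TAGGTCA shown for Arntl.
Tef, first start (chr15:81802535-81802562, plus strand), E-box: tgctgtggctcCACGTGctgcagctggc
Tef, second start (chr15:81811265-81811292, plus strand), E-box: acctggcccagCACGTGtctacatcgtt
Per1 (chr11:69098772-69098799, plus strand), E-box: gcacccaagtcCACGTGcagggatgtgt
Cry1 (chr10:85185098-85185125, minus strand), E-box: gtgccggtggtCACGTGgggtgcatgcc
Tef, second start (chr15:81811184-81811212, plus strand), RORE: agggacgcgacTGACCAAaaaagaacagg
Per3, distal (chr4:151044852-151044881, minus strand), D-box: cgacccgcgcgTTATGTAAggtactcgggg
Per3, proximal (chr4:151044805-151044834, minus strand), D-box: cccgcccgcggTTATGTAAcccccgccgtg
Per3 (chr4:151044766-151044794, minus strand), RORE: accccgccctcTGACCAAtgggagctcgt
Arntl (chr7:113207533-113207555, plus strand), RORE: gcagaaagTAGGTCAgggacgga
The D-box matches of Per3 lay 205 and 158 bases before its start and shared the same 8 letters. The Arntl match shown lay 31 bases after the second of its annotated starts, and its window held 2 further TNGGTCA matches upstream. The windows of Nr1d1, Nr1d2, Dbp and Npas2 held none of the 3 motifs, which says only that these letters are not in these windows.

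The same genes at their annotated places are Arntl (chromosome 7), Npas2 (1), Nr1d1 (11), Nr1d2 (14), Dbp (7), Tef (15), Per1 (11), Per2 (1), Per3 (4) and Cry1 (10). Exons of Nr1d1 overlap those of Thra on the opposite strand over 263 bases, 8.55% of the exonic length of Nr1d1. Exons of Dbp overlap those of Sphk2, also on the opposite strand, over 539 bases or 18%. Tef and Arntl overlap noncoding antisense genes over 2.45% and 0.439% of their exons. The strand setting of the counting is not given in the sources used here, so the values of these genes carry that doubt. Thra ranged from 37.6 to 112 CPM over all mice and Sphk2 from 41.3 to 120.

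Arntl, the activator of the loop, was highest in the BALB/c controls, at 80.9, 84.1 and 70.7 CPM in the 3 mice, and in the libraries labelled Rag1-/- control, at 68.0, 71.5 and 73.2. It was lowest in the Rag2-/- controls, at 21.0, 27.4 and 24.7 CPM. The 3 untreated groups thus spanned the whole range of Arntl, which was 3.23-fold between group means. DSS mice were at 33.2, 29.7 and 28.9 CPM, DNBS mice at 52.1, 27.8 and 49.0, and IL-10 antibody mice at 35.0, 34.9, 41.9 and 24.4. All 10 of these mice were below the BALB/c controls. TRUC mice were at 49.5, 44.7, 52.0 and 56.3 CPM, TCT mice at 56.7, 43.9 and 43.1, and anti-CD40 mice at 51.2, 45.2 and 48.7. These 3 groups overlapped each other, lay above every Rag2-/- control and below every library labelled Rag1-/- control. In the order of group means, Rag2-/- controls stood apart below DSS, the groups from DSS to TRUC overlapped their neighbours, and TRUC stood apart below the libraries labelled Rag1-/- control.

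Npas2, the partner of Arntl that can take the place of Clock, moved less, with 1.90-fold between the lowest and highest group means. DSS, Rag2-/- control, IL-10 antibody and DNBS mice made a lower set, from 14.8 to 41.6 CPM. The other 5 groups ran from 37.5 to 63.9 CPM. DNBS and TCT, the neighbours at this step, did not overlap (21.1 to 36.3 against 37.5 to 58.1 CPM), whereas the ranges of IL-10 antibody and TCT did.

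Nr1d1 (REV-ERB alpha) was highest in the Rag2-/- controls, at 164, 108 and 204 CPM, and lowest in TRUC, at 5.97, 8.45, 6.51 and 5.62. The ends of its range were thus 2 groups that share the Rag2 deletion, with 23.9-fold between their means. In order of means, the libraries labelled Rag1-/- control followed TRUC at 14.6, 12.2 and 9.29 CPM, then anti-CD40 at 9.77, 18.2 and 22.4 and TCT at 24.4, 24.4 and 17.6. BALB/c controls were at 50.6, 40.5 and 88.9 CPM, DNBS mice at 66.2, 45.8 and 35.1, and IL-10 antibody mice at 72.1, 86.1, 63.8 and 39.3. In DSS 1 mouse, replicate 6, was at 96.3 CPM and the other 2 at 29.8 and 26.9. TRUC did not overlap its neighbour, TCT did not overlap DNBS, the Rag2-/- controls did not overlap IL-10 antibody mice, and all other neighbours in the order did.

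Nr1d2 (REV-ERB beta), its paralog, had the same groups at both ends, while groups between them changed places. It was 104 to 126 CPM in the Rag2-/- controls, 6.84 to 14.4 in TRUC, and 17.2 to 36.2 over the anti-CD40, TCT and labelled Rag1-/- control mice. BALB/c control, DSS, DNBS and IL-10 antibody mice ran from 32.9 to 71.8 CPM. Of these 4, the IL-10 antibody mice had the highest mean of Nr1d1 (65.3 CPM) and the lowest of Nr1d2 (41.0), and DNBS mice the lowest of Nr1d1 (49.0) and the highest of Nr1d2 (59.9). The group means differed 12.3-fold at most.

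Dbp, a PAR bZIP factor and a direct readout of Arntl activity, had the widest range of the 10 genes, 41.2-fold between group means. It was at 44.4, 30.5 and 50.8 CPM in the Rag2-/- controls and at 0.885, 1.25, 0.550 and 1.38 in TRUC. All other groups lay between, and neither end overlapped its neighbour. IL-10 antibody mice were at 10.2, 16.3, 10.98 and 12.1 CPM, DNBS mice at 9.38, 14.04 and 5.89, and DSS mice at 5.10, 14.9 and 2.40. These overlapped each other, and the IL-10 antibody and DNBS mice lay above the BALB/c controls at 3.35, 2.06 and 5.58 CPM. The libraries labelled Rag1-/- control (1.55 to 3.39 CPM), anti-CD40 (2.35 to 3.09) and TCT (1.58 to 3.93) overlapped the BALB/c controls and each other.

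Tef, the other PAR bZIP factor, was 69.3 to 112 CPM in the Rag2-/- controls and 4.12 to 7.03 in TRUC, 15.6-fold between the means. The other 7 groups ran from 9.77 to 71.3 CPM, each overlapping its neighbours, and 1 DNBS mouse reached the range of the Rag2-/- controls. Thra and Sphk2, the genes whose exons overlap those of Nr1d1 and Dbp, had group means that differed far less, 43.1 to 99.3 CPM and 49.6 to 108.

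**Figure D1:**
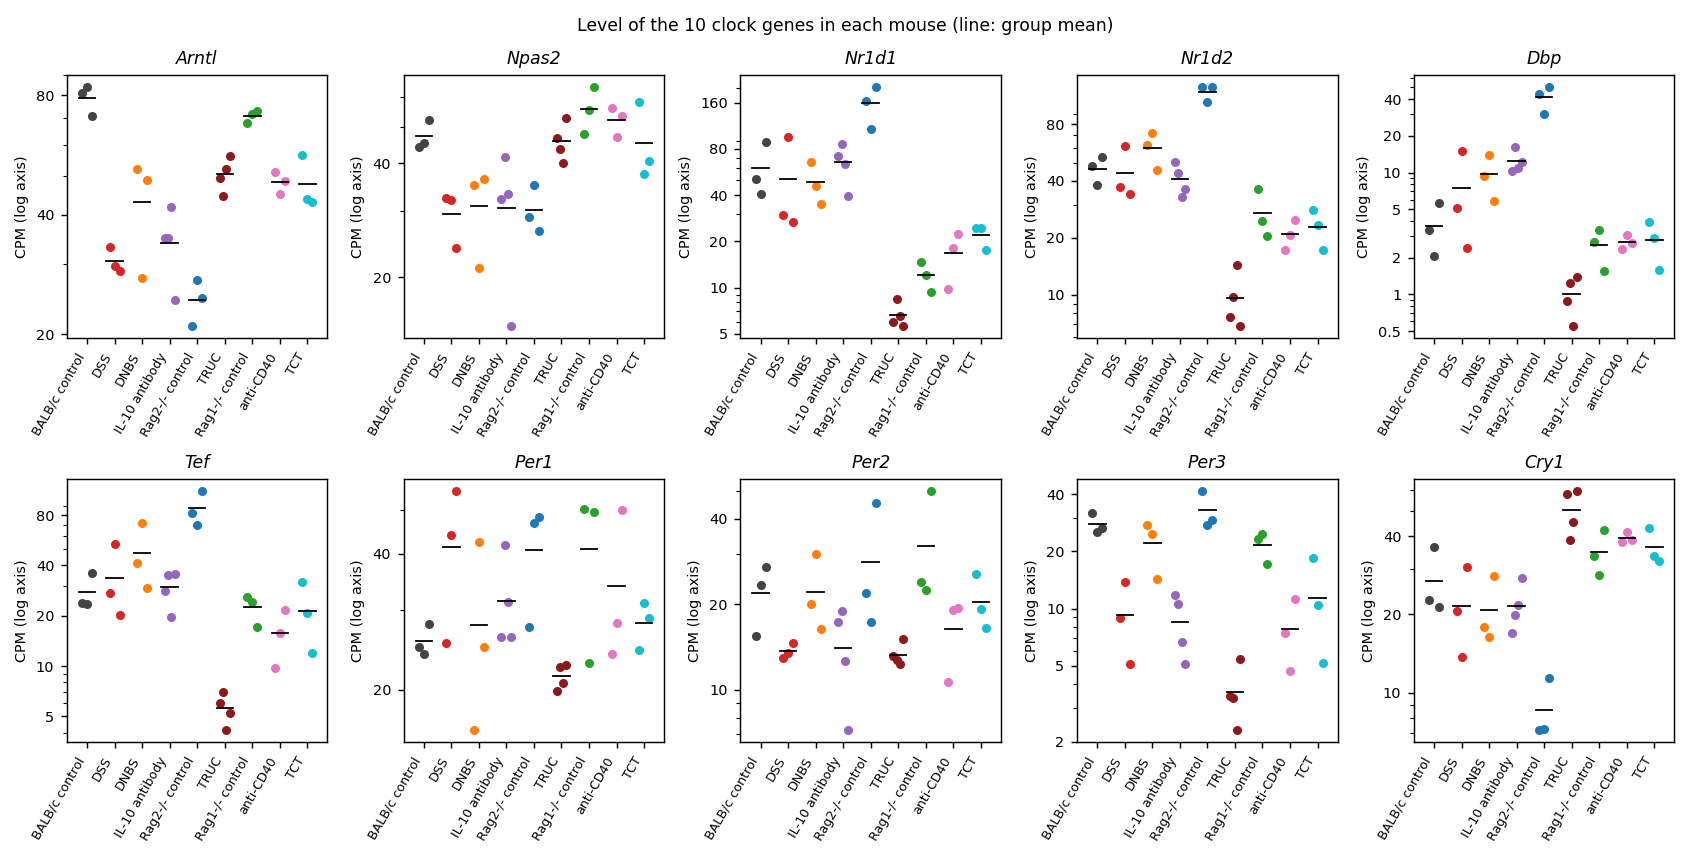
Level of each of the 10 clock genes in CPM (log axis) in each of 29 mice (points), by group, with a line at the group mean. Nr1d1, Nr1d2, Dbp and Tef are highest in the Rag2-/- controls and lowest in TRUC, and Cry1 runs the other way, from 7.17 to 11.4 CPM and from 38.7 to 59.7 CPM.

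The 3 Period genes, which code for repressors of Arntl, did not move as one. Per3 was 25.2 to 31.7 CPM in the BALB/c controls, 27.6 to 41.7 in the Rag2-/- controls and 17.1 to 24.7 in the libraries labelled Rag1-/- control. It was at 3.47, 3.38, 2.29 and 5.46 CPM in TRUC, 8.94, 13.7 and 5.12 in DSS, and 11.8, 10.6, 6.69 and 5.12 with the IL-10 antibody. Anti-CD40 mice were at 7.42, 4.72 and 11.3 CPM. These 4 models lay below all 9 untreated mice. In TCT the mice were at 18.4, 10.4 and 5.19 CPM, and in DNBS at 27.6, 24.7 and 14.4, so both overlapped the untreated range. The untreated mice of all 3 groups lay between 17.1 and 41.7 CPM in Per3.

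Per1 and Per2 varied little between groups and widely within them. Per1 spanned 1.94-fold between group means, from TRUC (19.8 to 22.7 CPM) to DSS (25.4 to 55.1), and Per2 2.41-fold, from TRUC (12.4 to 15.1 CPM) to the libraries labelled Rag1-/- control (22.4 to 50.1). All neighbours in the order of Per2 overlapped. Of the variance of log2 CPM over the 29 mice, 40.4% lay between groups for Per1, 52.5% for Per2 and 63.5% for Npas2, against 83.6% to 92.3% for Nr1d1, Nr1d2, Dbp, Tef, Per3, Arntl and Cry1. The median over all genes tested was 70.5%.

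Cry1, the repressor whose transcript is known to come last in the cycle, ran opposite to Dbp. It was at 7.17, 7.27 and 11.4 CPM in the Rag2-/- controls and at 58.3, 38.7, 45.3 and 59.7 in TRUC, 5.86-fold between the means. Anti-CD40 (38.0, 41.5 and 38.5 CPM), TCT (43.1, 33.5 and 32.1) and the libraries labelled Rag1-/- control (33.6, 28.4 and 42.3) reached into the lower end of the TRUC range. BALB/c control, DSS, DNBS and IL-10 antibody mice ran from 13.7 to 36.3 CPM. The Rag2-/- controls overlapped no other group.

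Set side by side, the groups were sorted into 4 combinations of levels, which overlap in some genes. Rag2-/- controls combined high Nr1d1, Nr1d2, Dbp and Tef with low Arntl, Npas2 and Cry1, which is the combination known from the hours of light. TRUC mice combined the lowest Nr1d1, Nr1d2, Dbp, Tef and Per3 with the highest Cry1 and middle Arntl. Low Nr1d1, Nr1d2, Dbp and Tef with high Cry1 is known from the dark phase, but Arntl was not high as well. It was 44.7 to 56.3 CPM in TRUC, below the BALB/c controls (70.7 to 84.1) and the labelled Rag1-/- controls (68.0 to 73.2). The placement of TRUC thus covers only part of the genes. These placements rest on 1 sampling of each mouse, at an hour that is not given and may differ between mice and groups. The libraries labelled Rag1-/- control, with anti-CD40 and TCT, had low Nr1d1 and Dbp with high Npas2 and Cry1. BALB/c controls overlapped each of these groups in Dbp (2.06 to 5.58 CPM) and Npas2 (44.4 to 52.2), and the labelled Rag1-/- controls in Arntl. Per3 split the set, at 17.1 to 24.7 CPM in the labelled Rag1-/- controls and 4.72 to 11.3 with anti-CD40. BALB/c control, DSS, DNBS and IL-10 antibody mice had middle Nr1d1 and Cry1, and of these only the controls had high Arntl. The log2 ratio of Cry1 to Nr1d1, in which only differences between mice carry meaning, was -4.52 to -3.89 in the Rag2-/- controls and 2.20 to 3.41 in TRUC. It was 1.20 to 2.18 in the libraries labelled Rag1-/- control, 0.78 to 1.96 in anti-CD40, 0.46 to 0.86 in TCT and -2.82 to 0.18 over the other 4 groups. The first principal component of the 10 genes held 79.2% of their variance and was carried by Dbp (loading -0.54), Nr1d1 (-0.49), Tef (-0.39), Nr1d2 (-0.37), Per3 (-0.30) and, with the other sign, Cry1 (0.25). The second held 11.1% and was carried by Per3 (0.70), Per2 (0.39) and Arntl (0.38). On it BALB/c control (1.25 to 1.67) and labelled Rag1-/- control mice (1.55 to 2.06) lay above DSS (-1.04 to -0.71), IL-10 antibody (-2.39 to -0.69) and TRUC mice (-0.92 to -0.14).

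**Figure D2:**
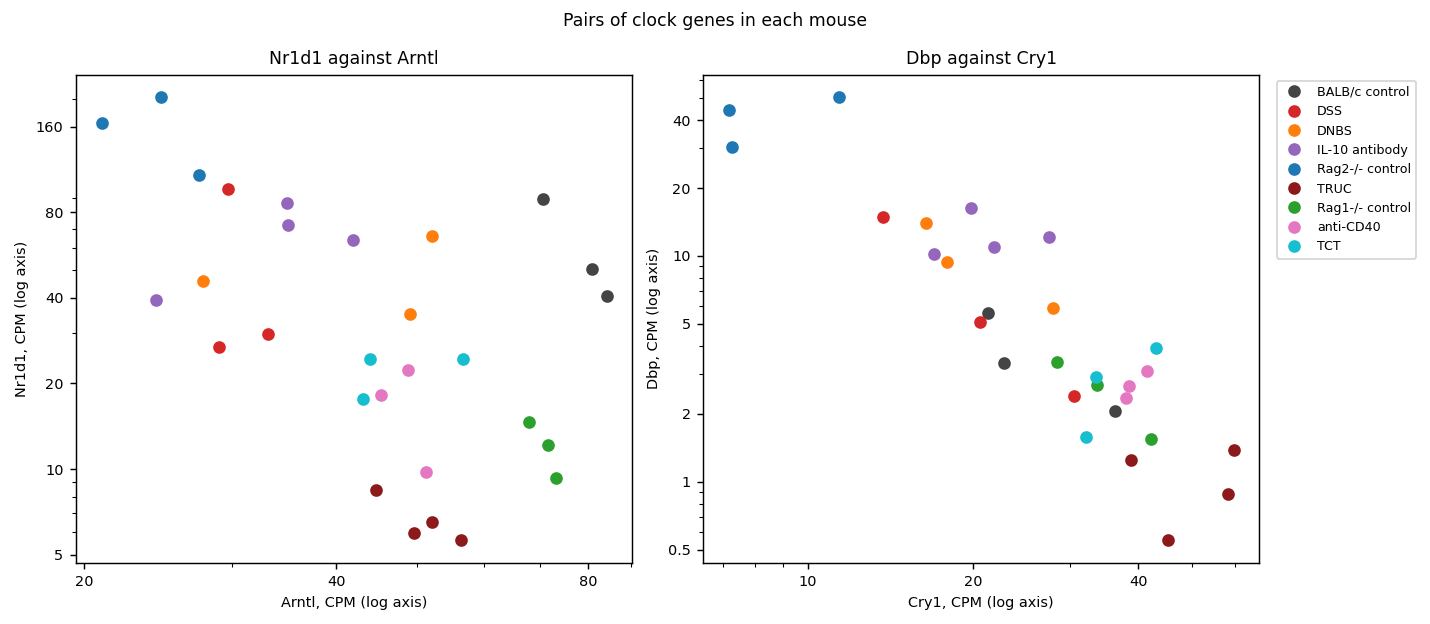
Nr1d1 against Arntl and Dbp against Cry1 in each mouse (points, colored by group), in CPM on log axes. Dbp and Cry1 form 1 descending band from the Rag2-/- controls to TRUC, while BALB/c controls lie to the right of the DSS, DNBS and IL-10 antibody mice in Arntl, at 70.7 to 84.1 CPM.

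The untreated groups were compared with each other first, since each serves as the baseline of a model. The labelled Rag1-/- and the Rag2-/- controls differed in 23 of 18616 genes, 13 higher (0.0698% of genes tested) and 10 lower (0.0537%) in the former (edgeR, threshold 0.05 on the adjusted p). Of the 10 clock genes, 2 were among those higher and 4 among those lower. Nr1d1 was lower by a log2 fold change of -3.72 (SE 0.45), Dbp by -4.03 (SE 0.51), Nr1d2 by -2.13 (SE 0.27) and Tef by -1.96 (SE 0.38), while Cry1 was higher by 2.01 (SE 0.28) and Arntl by 1.54 (SE 0.19). Ordered by p, 5 of the first 6 genes were from this set. Since the set was chosen by levels in these groups, nothing is read from the order. The other gene was E2f2, a cell cycle transcription factor, which was named after its values were seen and was higher by 1.88. The Rag2-/- controls differed from the BALB/c controls in 6 of the 10 genes, 4 higher (background 3.25%) and 2 lower (4.86%), with Dbp at 3.52 (SE 0.49), Tef at 1.65 (SE 0.37), Nr1d1 at 1.40 (SE 0.40), Nr1d2 at 1.35 (SE 0.26), Arntl at -1.69 (SE 0.19) and Cry1 at -1.64 (SE 0.28). The labelled Rag1-/- controls differed from the BALB/c controls in Nr1d1 alone, at -2.32 (SE 0.43), where 4.77% of genes tested were higher and 6.18% lower. Labelled strain, genotype and hour of culling cannot be told apart in these differences.

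TRUC against the Rag2-/- controls gave the largest changes, and all 10 genes were past the threshold, 3 higher (22.4% of all genes tested were) and 7 lower (23.4%). Dbp was lower by a log2 fold change of -5.35 (SE 0.50), Nr1d1 by -4.58 (SE 0.42), Tef by -3.96 (SE 0.38), Nr1d2 by -3.62 (SE 0.26) and Per3 by -3.16 (SE 0.39). Per2 and Per1 were lower by -1.08 (SE 0.33) and -0.93 (SE 0.31). Cry1 was higher by 2.55 (SE 0.28), Arntl by 1.05 (SE 0.18) and Npas2 by 0.60 (SE 0.24). Without Rag2-/- control replicate 4, 7 of the 10 were past the threshold and Per2 was -0.55. The median absolute change of the 10 genes was 2.85, and that over all genes tested 0.51. As the 10 were chosen by their levels in these groups, nothing is read from this difference. Against the BALB/c controls, TRUC levels were also below in Nr1d1, Nr1d2, Dbp, Tef and Per3, with no overlap, and TRUC lay below rather than above them in Arntl (44.7 to 56.3 against 70.7 to 84.1 CPM). The direction of Arntl in TRUC therefore rests on the Rag2-/- controls.

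In DSS, 3 of the 10 genes were past the threshold, all lower, where 17.7% of all genes tested were higher and 16.3% lower. They were Per3, at a log2 fold change of -1.58 (SE 0.40), Arntl at -1.36 (SE 0.18) and Npas2 at -0.69 (SE 0.25). Nr1d1 (-0.23, SE 0.40) and Dbp (1.04, SE 0.47) rested on replicate 6, without which they were -1.08 and 0.06. In DNBS, only Arntl was past the threshold, at -0.87 (SE 0.18), where 3.95% of genes were higher and 2.21% lower. Dbp was 1.42 (SE 0.47) and Npas2 -0.62 (SE 0.25) there. With the IL-10 antibody, Dbp was higher by 1.77 (SE 0.46), and Per3 (-1.70, SE 0.37), Arntl (-1.21, SE 0.17) and Npas2 (-0.63, SE 0.23) were lower, where 27.2% of genes tested were higher and 26.1% lower. DSS, DNBS and IL-10 antibody share their 3 control mice, so that their changes are not independent of each other. In all 3, Nr1d1, Nr1d2, Tef and Cry1 were within the threshold, at log2 fold changes from -0.37 to 0.77.

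In TCT, only Arntl was past the threshold, at -0.57 (SE 0.18) against the labelled Rag1-/- controls, where 16.1% of genes were higher and 14% lower. It was not past it without Rag1-/- control replicate 3 or 4 or TCT replicate 3 or 5, at fold changes between -0.70 and -0.50 when any 1 mouse was left out. Against the BALB/c controls 4 genes were lower, Nr1d1 (-1.44, SE 0.41), Per3 (-1.29, SE 0.40), Nr1d2 (-1.02, SE 0.27) and Arntl (-0.71, SE 0.18), where 16.9% of genes were higher and 13.8% lower. With anti-CD40, Per3 (-1.47, SE 0.41) and Arntl (-0.55, SE 0.18) were lower than in the labelled Rag1-/- controls, where 10.9% of genes were higher and 10.7% lower. Without replicate 7 neither was past the threshold, with fold changes of -1.21 and -0.51. Against the Rag2-/- controls, anti-CD40 mice had 8 of the 10 genes past the threshold, 3 higher (background 12.4%) and 5 lower (11.8%). Arntl then turned to 0.99 (SE 0.19), with Dbp at -3.95 (SE 0.51), Nr1d1 at -3.23 (SE 0.43) and Cry1 at 2.19 (SE 0.28). Per3 was lower with either control, at -2.07 (SE 0.41) with the second.

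**Figure D3:**
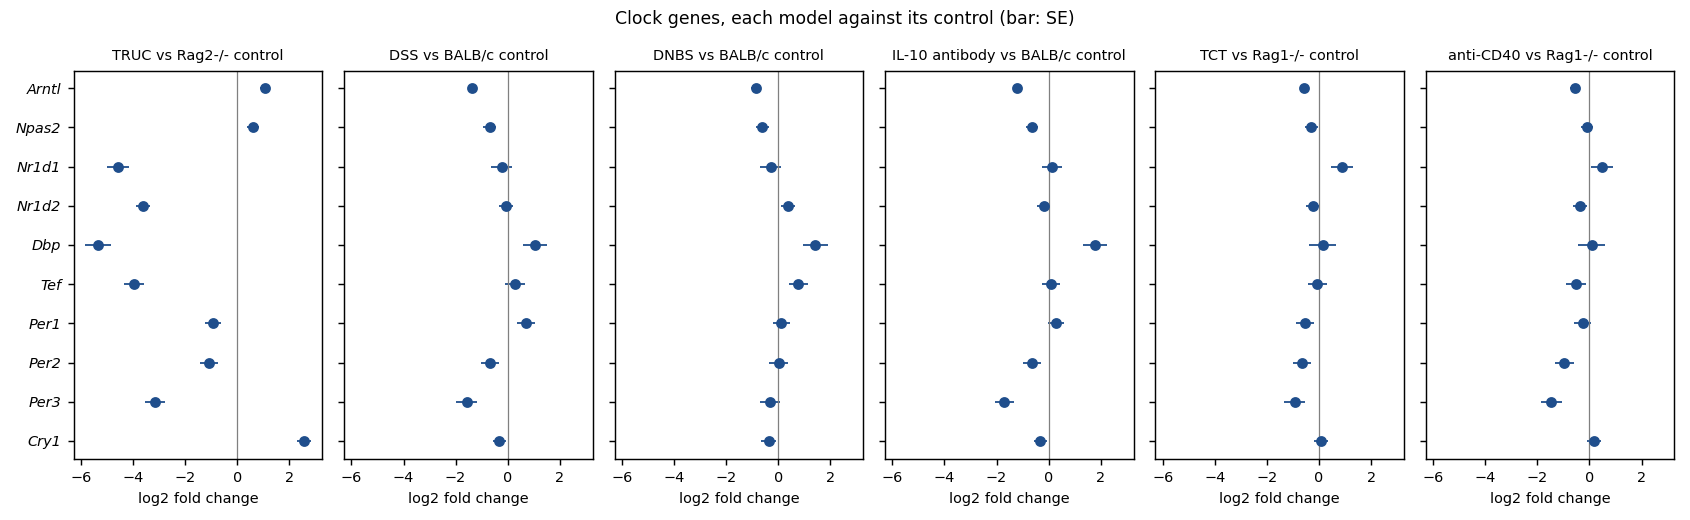
Log2 fold change of each clock gene in 6 colitis models against their labelled controls (points, bars are SE). TRUC spans -5.35 to 2.55, and Arntl lies to the right of 0 in TRUC and to the left in the others.

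Within groups, mice differed in ways that follow the same pairs of genes. Deviations of log2 CPM from the group mean were compared over the 29 mice, as a description. All levels of a mouse share the scaling of its library. Dbp and Tef deviated together (Pearson r = 0.82, Spearman rho = 0.84), as did Arntl and Npas2 (0.77 and 0.76), Nr1d1 and Dbp (0.72 and 0.64), and Nr1d1 and Nr1d2 (0.71 and 0.70). Cry1 deviated against Nr1d1 (-0.55 and -0.46) and Nr1d2 (-0.55 and -0.54). Nr1d1 and Arntl, opposed over all mice at r = -0.51, were at r = -0.0018 and rho = -0.15 within groups. DSS replicate 6 illustrates the first set, being the highest of its group in Nr1d1, Nr1d2, Dbp, Tef and Per3 and the lowest in Cry1 (13.7 CPM).

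**Figure D4:**
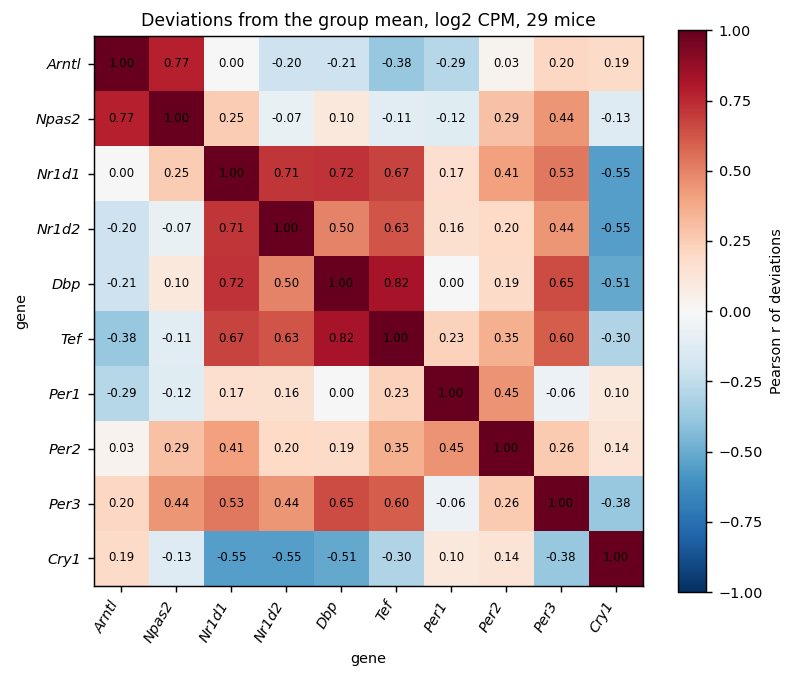
Pearson correlation between clock genes of the deviations of log2 CPM from the group mean, over 29 mice (red positive, blue negative). Dbp and Tef (0.82) and Arntl and Npas2 (0.77) are the highest pairs, and Cry1 is negative against Nr1d1, Nr1d2, Dbp, Tef and Per3.

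Genes in any list used here, other clock genes and markers included, were left out of a search for levels most like Dbp and Arntl. Of the remaining genes, those most like Dbp over the 29 mice were Syt7 (r = 0.75, rho = 0.65), Gcnt3, Gm21885, Lefty1 and Fhit, with r from 0.70 to 0.75. Those most like Arntl were Rdh16f2 (r = 0.80, rho = 0.77), Bloodlinc, Gm19276, Med18 and Rexo5, with r from 0.72 to 0.80. For comparison, Dbp reached r = 0.90 with Tef and 0.91 with Nr1d1, and Arntl 0.79 with Npas2. Lefty1 held its likeness to Dbp within groups (r = 0.70), and Fhit (0.28) less. These values carry no test, since the mice of a group are alike in many genes.

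A further 15 core clock genes were tested in each model (edgeR, adjusted over all 18616 genes). They were listed apart from the 10 but also chosen with earlier results of these data known. In TRUC 2 rose and 5 fell, in DSS 3 and 4, with the IL-10 antibody 3 and 6, in TCT 4 and 1, and with anti-CD40 5 fell. The 7 of 15 called in TRUC (46.7%) stood beside 45.8% of all genes, the 9 with the IL-10 antibody (60%) beside 53.3% and the 5 in TCT (33.3%) beside 30.1%, so these shares were near the background. In DSS 46.7% stood beside 34% and with anti-CD40 33.3% beside 21.6%. Without DSS replicate 8, 3 genes were called in DSS, without TCT replicate 5, 3 in TCT, and without anti-CD40 replicate 7, 2 with anti-CD40. In DNBS, where 6.17% of all genes were called, edgeR called 0, with 2 at an unadjusted p under 0.05 (Cry2 and Btrc), and DESeq2 called 1 (Cry2). Over the list, the median change on the log2 scale ran from -0.44 in TRUC to 0.20 in DSS, beside medians of -0.03 to 0.02 over all genes. Cry2, the paralog of Cry1, fell in 5 of the 6 models. It was 32.7, 34.8 and 42.7 CPM in the BALB/c controls, 22.8 to 35.0 in the Rag2-/- controls and 31.3 to 34.6 in the libraries labelled Rag1-/- control. Its level was 6.86 to 14.2 CPM in TRUC (log2 fold change -1.67, SE 0.28, adjusted p = 5.46e-05) and 7.97 to 13.3 with anti-CD40 (-1.69, SE 0.30, adjusted p = 0.000467). The falls were -1.42 (SE 0.27) with the IL-10 antibody, -1.19 (SE 0.29) in DSS and -1.03 (SE 0.29) in TCT, with adjusted p of 0.000161, 0.00309 and 0.00978. In TCT the call was lost without replicate 3 (-0.88, adjusted p = 0.0529) or 5 (-0.76, adjusted p = 0.0756). In DNBS Cry2 was at -0.67 (SE 0.29, adjusted p = 0.151). Cry2 fell with the other controls too, at -1.16 in TCT and -1.47 with anti-CD40. In TRUC Cry1 was higher and Cry2 lower.

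Hlf, the third PAR bZIP gene beside Dbp and Tef, fell in TRUC (log2 fold change -1.69, SE 0.28, adjusted p = 5.47e-05), with anti-CD40 (-1.89, SE 0.34, adjusted p = 0.000535) and with the IL-10 antibody (-0.85, SE 0.29, adjusted p = 0.0156), the last not without BALB/c control replicate 1 or IL-10 antibody replicate 4. Nfil3, a repressor that competes for the D-box, rose in TRUC (2.89, SE 0.61, adjusted p = 0.000592), DSS (2.41, SE 0.59, adjusted p = 0.00297) and with the IL-10 antibody (1.49, SE 0.56, adjusted p = 0.0281). It was 18.5 to 27.7 CPM in TRUC against 2.22 to 4.00 in the Rag2-/- controls. In DSS replicate 8, which had the highest leukocyte marker sum at 1991 CPM, Nfil3 was 81.8 CPM, against 12.7 and 12.9 in the other 2 mice. Without this mouse the change in DSS was 0.93 (adjusted p = 0.16), and without IL-10 antibody replicate 4, at 44.0 CPM, that with the IL-10 antibody was 0.64 (adjusted p = 0.284). The latter call was also lost without BALB/c control replicate 1 or 4. Nfil3 is also used by immune cells, and their part was not tested. In TRUC all 3 PAR bZIP genes were lower and Nfil3 higher, whereas with the IL-10 antibody Hlf was lower, Dbp higher and Tef at 0.09.

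Rora, which codes for a receptor that activates through the RORE, rose in TCT (1.16, SE 0.24, adjusted p = 0.00073), where it was 0.39 against the BALB/c controls (adjusted p = 0.211) and no longer called. It fell with the IL-10 antibody (-0.76, SE 0.22, adjusted p = 0.00672) and anti-CD40 (-0.70, SE 0.25, adjusted p = 0.0498). Arntl2, a paralog of Arntl, rose in TCT (2.23, SE 0.29, adjusted p = 3.21e-06), TRUC (1.24, SE 0.30, adjusted p = 0.00179), DSS (0.87, SE 0.27, adjusted p = 0.0165) and with the IL-10 antibody (0.69, SE 0.26, adjusted p = 0.0297). Clock itself fell in DSS (-0.50, SE 0.16, adjusted p = 0.0178) and with the IL-10 antibody (-0.76, SE 0.15, adjusted p = 0.000196), where its partners Arntl and Npas2 were lower too. Leaving out 1 mouse ended the calls of Rora with anti-CD40 (4 of 6 mice), Arntl2 with the IL-10 antibody (4 of 7) and in DSS (3 of 6), and Clock in DSS (3 of 6). The call of Rora with anti-CD40 was also lost under RLE scaling, under both other filters, in the 2 groups alone and by DESeq2. Arntl2 rose against the second controls too, at 1.15 in TCT and, called there, 1.15 with anti-CD40.

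Bhlhe41, a repressor of Arntl activity, rose in DSS (log2 fold change 1.69, SE 0.48, adjusted p = 0.00839) and with the IL-10 antibody (2.23, SE 0.46, adjusted p = 0.000342) and fell in TRUC (-2.19, SE 0.47, adjusted p = 0.000704). Its levels were low, with 2 to 13 reads per TRUC mouse. Btrc, which codes for a subunit that marks Per proteins for breakdown, fell in TRUC, DSS and with the IL-10 antibody, by log2 fold changes of -0.54, -0.39 and -0.49 (SE 0.12 to 0.13, adjusted p = 0.00122, 0.0246 and 0.00201), and the call in DSS ended when any of 4 of the 6 mice was left out. The other genes of the list past the threshold were Rorb, lower with the IL-10 antibody and anti-CD40, Csnk1e, lower in TRUC and with anti-CD40, Csnk1d, lower in DSS, and Ciart and Bhlhe40, higher in TCT. Against the BALB/c controls the calls in TCT were lost, with Ciart at 0.34 (adjusted p = 0.636) and Bhlhe40 at 0.29 (adjusted p = 0.28). Against the Rag2-/- controls those with anti-CD40 were lost, with Rorb at -1.65 (adjusted p = 0.125) and Csnk1e at -0.34 (adjusted p = 0.235). Csnk1e in TRUC and Csnk1d in DSS each lost the call under 9 alternatives, RLE scaling among them, and Rorb with the IL-10 antibody under 8, DESeq2 among them.

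**Figure D5:**
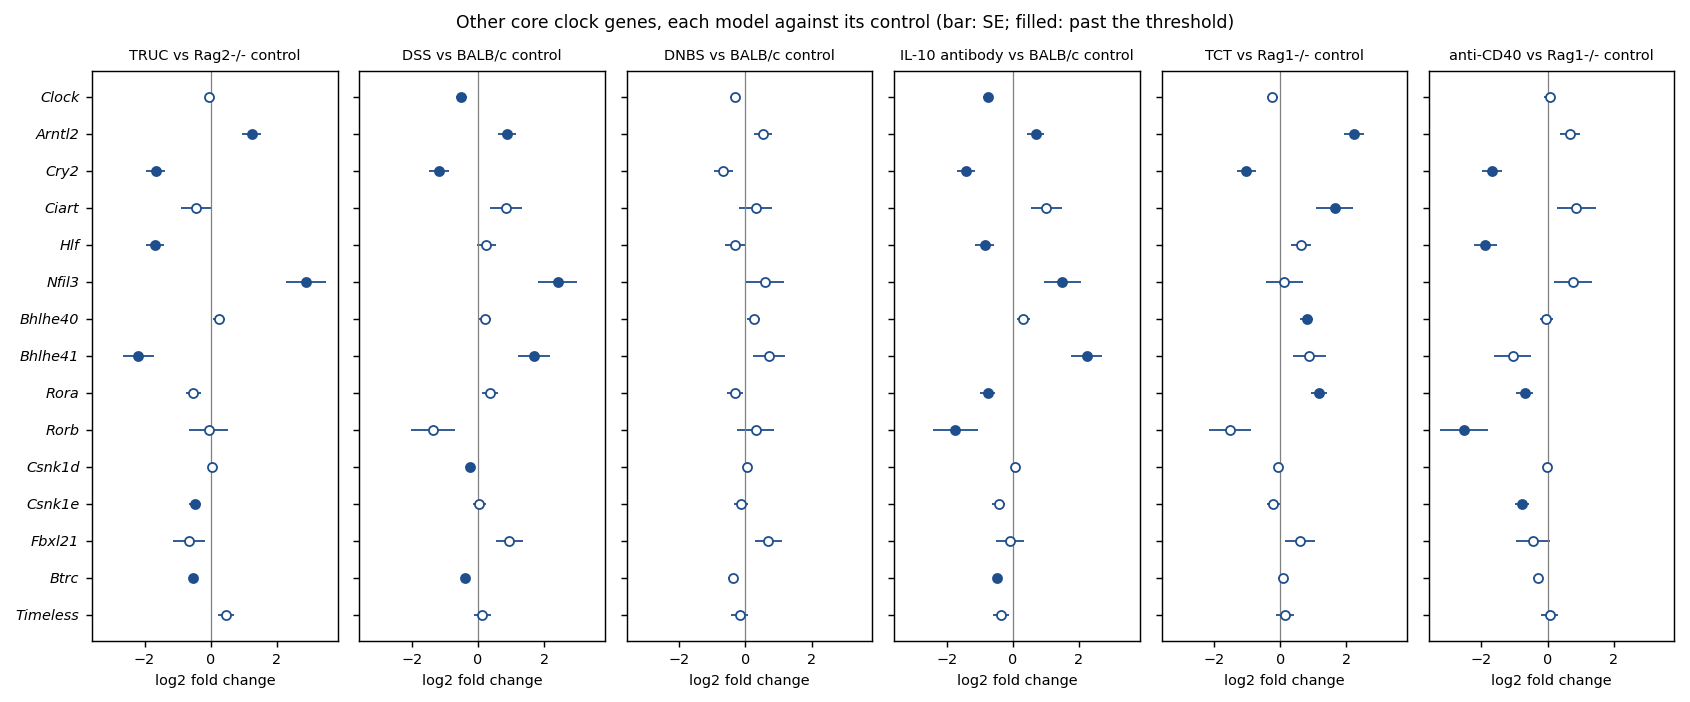
Log2 fold change of 15 other core clock genes in the 6 models against their labelled controls (points, bars are SE, filled where the adjusted p passed the threshold in edgeR). Cry2 is filled and below 0 in every panel but DNBS, and Bhlhe41 is filled on opposite sides in TRUC and in DSS.

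The changes of these genes differed between the 6 models for 12 of the 15 (edgeR test of equal change), where 60.5% of all genes tested did. Rora (adjusted p = 4.35e-06), Hlf (5.02e-06) and Bhlhe41 (4.19e-05) led, and Ciart, Csnk1d and Timeless did not pass. Between untreated groups, 1 of the 15, Arntl2, fell in the Rag2-/- controls against the BALB/c controls (6.67%, beside 8.11% of all genes called). In the labelled Rag1-/- against the BALB/c controls 3 fell (Arntl2, Rora and Btrc, 20%, beside 10.9%). In this second comparison edgeR called 0 without BALB/c control replicate 1 and 1 without Rag1-/- control replicate 2, and DESeq2 on all 6 mice called 5. Between the labelled Rag1-/- and the Rag2-/- controls, where 0.124% of all genes were called, edgeR called 0 of the 15. Of these, 6 had an unadjusted p under 0.05, and DESeq2 called 2 (Hlf and Nfil3).

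Of 12 clock output genes, 5 rose and 4 fell in TRUC, 4 and 2 in DSS, 5 and 3 with the IL-10 antibody, 3 and 1 in TCT and 1 and 2 with anti-CD40, and 1 rose in DNBS. Called were 75% in TRUC, beside 45.8% of all genes, 50% in DSS beside 34%, 66.7% with the IL-10 antibody beside 53.3%, 33.3% in TCT beside 30.1%, 25% with anti-CD40 beside 21.6% and 8.33% in DNBS beside 6.17%, so that the last 3 were near the background. Without Rag2-/- control replicate 4, 5 were called in TRUC, without DSS replicate 8, 2 in DSS, and without anti-CD40 replicate 6, 0 with anti-CD40 by edgeR, where DESeq2 on all 6 mice called 6. Nampt, the enzyme of NAD salvage, rose in every model but DNBS, by log2 fold changes from 1.15 (SE 0.40, adjusted p = 0.0421) with anti-CD40 to 1.76 (SE 0.41, adjusted p = 0.0019) in DSS. It was 70.2 to 82.7 CPM in the BALB/c and Rag2-/- controls and 159 to 227 in TRUC. Tspan4, a tetraspanin, rose in every model but anti-CD40, from 0.65 in TRUC (SE 0.23, adjusted p = 0.0259) to 2.44 in DSS (SE 0.25, adjusted p = 7.07e-07). Wee1, a kinase that holds back mitosis and a target of Arntl, fell in every model but DNBS, from -0.48 in TRUC (SE 0.19, adjusted p = 0.0432) to -1.11 with the IL-10 antibody (SE 0.19, adjusted p = 5.69e-05). With anti-CD40 this call was lost against the Rag2-/- controls (-0.44, adjusted p = 0.117). Tsc22d3, which glucocorticoids also induce, fell in TRUC (-0.70, SE 0.20, adjusted p = 0.00643), DSS (-0.62, SE 0.21, adjusted p = 0.0276) and with the IL-10 antibody (-0.73, SE 0.20, adjusted p = 0.00398). Nampt was 492 CPM in DSS replicate 8, where the leukocyte marker sum was highest, and without this mouse its change in DSS was 0.75 (adjusted p = 0.0846). Leaving out 1 mouse also ended the calls of Nampt with anti-CD40 (5 of 6 mice) and in TCT (2 of 6), of Wee1 and Tspan4 in TRUC (4 of 7 each), of Wee1 with anti-CD40 (2 of 6), of Tspan4 with the IL-10 antibody (2 of 7), and of Tsc22d3 in DSS (4 of 6) and TRUC (1 of 7, Rag2-/- control replicate 4).

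Glucocorticoids, which have a daily rhythm of their own, induce a list of 6 genes that was measured beside the clock. In TRUC 4 of the 6 fell, namely Zbtb16 (log2 fold change -4.26, SE 0.46, adjusted p = 4.19e-07), Sgk1 (-2.96, SE 0.46, adjusted p = 2.84e-05), Fkbp5 (-1.63, SE 0.38, adjusted p = 0.00137) and Klf9 (-0.78, SE 0.20, adjusted p = 0.00233). The list's median was -1.21 there, beside -0.03 over all genes, and 23.4% of all genes fell in TRUC. Zbtb16 was itself higher in the Rag2-/- than in the BALB/c controls, by 1.48 (SE 0.43, adjusted p = 0.0336, edgeR). Sgk1 was at 1.35 in that comparison (SE 0.48, adjusted p = 0.0921), and Fkbp5 and Klf9 were not called in it. With the IL-10 antibody 3 fell (Zbtb16, Sgk1 and Klf9), in TCT 2 (Sgk1 and Zbtb16) and with anti-CD40 1 (Sgk1), where 26.1%, 14% and 10.7% of all genes fell. Sgk1 in TCT was -2.29 against the labelled Rag1-/- controls and -0.77 against the BALB/c controls (adjusted p = 0.229), and it was higher in the former than in the latter by 1.52 (adjusted p = 0.0413). Zbtb16 in TCT and Sgk1 with anti-CD40 were called with the second control too, at -1.26 and -1.56. In DSS edgeR and DESeq2 called 0 of 6, and 0 had an unadjusted p under 0.05. In DNBS edgeR called 0, with 2 at an unadjusted p under 0.05, and DESeq2 called 2 (Zbtb16 and Klf9).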

How the data were processed

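Per the labels, polyA RNA of colon segments was sequenced from 29 mice in 9 groups. The deposited counts per gene, with Ensembl identifiers, were made by the authors from their reads. The submitters' processing notes name Trimmomatic, HISAT2, HTSeq and the build GRCm38, and versions and strand setting are not given in the sources used here. The 92 spike-in rows, with a total count of 0, were left out. Identifiers were matched to symbols for 54409 of 54532 genes.

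Genes whose counts averaged 3 or more over the mice were fitted with all 9 groups in 1 model in R 4.3.3 (edgeR 4.0.16, quasi-likelihood test, TMM scaling, Benjamini-Hochberg adjustment over 18616 genes, threshold 0.05). SE is the log2 fold change over the root of F. Log2 CPM used a prior count of 2. The members and all gene lists were chosen with earlier results of these data known. All 10 members are named, other core clock genes may be named, those called in at least 3 models first, and output genes by the 4 largest mean changes among those called in at least 3 of 6 models. Genes most like Dbp and Arntl were the 5 highest by Pearson r among genes with a symbol that were in none of the gene lists. Alternatives were other scaling, filters, DESeq2 1.42.0, the 2 groups alone, other controls, a replicate block and leaving out each mouse. The fit was tested on simulated data. Replicates are separate mice by label, and no 2 libraries were identical. Some genes of the lists are not reported here. Positions are those of GENCODE M21 and RefSeq.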

Additional observations from a re-analysis of the deposited data

Results flagged for a closer look

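Among groups of 4 mice, 74 sets of values were examined for a sample far from the other 3, and 5 were found, where chance gives about 1 in 20. In TRUC replicate 4 Clock was 154 CPM, against 142 to 143 in the others. In TRUC replicate 5 Cry2 was 14.2 CPM (others 6.86 to 7.56), Usp2 27.7 (18.2 to 19.7) and Por 92.3 (81.3 to 82.6). In IL-10 antibody replicate 4 Nfil3 was 44.0 CPM (others 9.56 to 11.3).

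The change against the control differed between the 6 models by the edgeR test for 12 of the 15 other core clock genes, where 60.5% of all genes tested did. The adjusted p was 4.35e-06 for Rora, 5.02e-06 for Hlf and 4.19e-05 for Bhlhe41. It was 0.000638 for Arntl2, 0.0117 for Nfil3, 0.0143 for Clock, 0.0201 for Rorb and 0.0217 for Bhlhe40. It was 0.0386 for Fbxl21, 0.0396 for Btrc, 0.0449 for Csnk1e and 0.0466 for Cry2. The models also differ in labelled strain, genotype and control group, and the part of these was not tested.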

How the results depend on the processing

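Of the fold changes of the 10 clock genes under all alternatives, 705 moved by less than the spread between mice and 14 moved further. A reversal was counted only where the main fold change was past the threshold. The 1 found was that of Arntl with anti-CD40, 0.99 against the Rag2-/- controls. Fold changes not past the threshold also changed sign, such as Nr1d1 in DSS, from -1.08 to 0.16 when 1 mouse was left out. Of the other genes' calls, 645 kept direction and side of the threshold and 139 lost the call, 96 of these when 1 mouse was left out. The causes were not tested. Fitting the 2 groups alone gave 3 other core clock genes in DSS in place of 7, 6 output genes with anti-CD40 in place of 3, and 0 of the 10 clock genes in DNBS and 2 in TCT in place of 1 each. DESeq2 gave 1 other core clock gene, 2 output genes and 2 of the 10 clock genes in DNBS, 3 of the 10 in TCT and 6 output genes with anti-CD40. DESeq2 between control groups, added after seeing the data, gave 7 other core clock genes in Rag2-/- against BALB/c, where edgeR gave 1 and RLE scaling 3, 5 in the labelled Rag1-/- against BALB/c controls, where edgeR gave 3, and 2 in the labelled Rag1-/- against Rag2-/- controls, where edgeR gave 0 with 6 at an unadjusted p under 0.05. TCT against the BALB/c controls gave 4 of the 10 clock genes and 3 other core clock genes in place of 5. Anti-CD40 against the Rag2-/- controls gave 8 of the 10, 7 other core clock genes and 5 output genes. With anti-CD40 the filterByExpr filter gave 3 other core clock genes in place of 5, and no filter gave 1 of the 10 in place of 2. When 1 mouse was left out, the lone or remaining mice being assumed to vary like the other groups, the counts ranged as follows. Output genes were 5 to 8 in TRUC (lowest without Rag2-/- control replicate 4), 2 to 6 in DSS (without DSS replicate 8), 1 to 2 in DNBS and 0 to 3 with anti-CD40 (without anti-CD40 replicate 6). Other core clock genes were 3 to 6 in DSS (without replicate 8), 0 to 1 in DNBS, 3 to 5 in TCT (without replicate 5) and 2 to 6 with anti-CD40 (without replicate 7). They were 0 to 3 in the labelled Rag1-/- against BALB/c controls (without BALB/c replicate 1) and 1 to 2 in the Rag2-/- against BALB/c controls. Of the 10 clock genes, 0 to 2 were called in TCT and 0 to 3 with anti-CD40.

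Mice with the same number shared only the number, with correlations of deviations of -0.052 and -0.0055 in TRUC and -0.020 to 0.056 with the IL-10 antibody. A replicate block gave 6 other core clock genes, 7 output genes and 10 of the 10 clock genes in TRUC, and 7, 7 and 3 with the IL-10 antibody, in place of 7, 9 and 10 and of 9, 8 and 4.

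Groups held 3 or 4 mice, and the p-values of the main fit rest on a spread between mice estimated over all 9 groups together. They measure no other spread, such as that between experiments. Low counts limit Bhlhe41 and, in TRUC, Dbp.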
